A study of Arabidopsis thaliana with 17 samples.

Results

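The 38 genes described here encode the core histones of Arabidopsis thaliana and their variants. They were picked by locus identifier, not by a cut on their values, from the 28642 genes of a table of transcript levels. Earlier results of these data were known when they were picked. By the usual assignment of these loci, they comprised 5 H3.1 genes, 3 H3.3 genes, 8 H4 genes, 4 H2A genes without a variant label (HTA10, HTA13, HTA2 and RAT5), 2 H2A.X genes, 3 H2A.Z genes, 3 H2A.W genes and 10 H2B genes. The study followed hypocotyls of seedlings grown in darkness on MS-0 plates. The hypocotyls were severed with a sharp cut and left in darkness on the same kind of plate, a treatment after which callus forms at the wound. RNA was taken at 0, 1, 3, 6, 12 and 24 h after the cut, with n = 3 libraries at each time point except 24 h, where n = 2. No genotype, strain or agent other than the plain plates and the cut is given, and the 0 h libraries were the common reference, so hours since cutting and hours in culture cannot be told apart.

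Nucleosomes are built from histones H2A, H2B, H3 and H4, and a dividing cell has to make enough of them to package the DNA it copies. H3.1 and H4 are made mainly during S phase and H3.1 is laid down behind replication forks, whereas the replacement variants can be exchanged outside replication. H3.3 is laid down with transcription, H2A.Z marks gene starts and the bodies of responsive genes, H2A.W is a plant variant of heterochromatin, and H2A.X is phosphorylated at DNA breaks. The question set here was how the replication-linked H3.1 and H4 genes moved against the replacement variants H3.3, H2A.Z, H2A.W and H2A.X.

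Sequences show how alike the H3 genes are and what lies before the starts of some members. All are from RefSeq, assembly TAIR10.1, read from the strand of the gene. H3.1 and H3.3 proteins differ at few residues, and reads can be told apart only through their nucleotide differences. The stretch of codons 27 to 42 (counted from the codon after the start codon) is shown for the H3.1 gene AT1G09200 (chr1:2972004-2972051, minus strand) and the H3.3 gene AT4G40030 (chr4:18556207-18556254, minus strand), with the 14 of 48 bases that differ in capitals.
AT1G09200 (H3.1): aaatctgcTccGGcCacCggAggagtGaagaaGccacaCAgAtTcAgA
AT4G40030 (H3.3): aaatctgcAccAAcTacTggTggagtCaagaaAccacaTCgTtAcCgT
Over whole coding sequences, H3.1 genes shared 74.0% to 80.3% of their bases with H3.3 genes and 80.3% to 89.5% with each other. H4 genes shared 78.8% to 98.1%. The share of 50-base words found in another transcript was highest in the H3.1 gene AT3G27360 (35.6%), which overlaps a neighbour by 328 bases on the same strand. It lay between 22.2% and 27.9% in the H4 genes AT3G46320, AT1G07660, AT3G45930 and AT1G07820, so the split of reads among them is uncertain. AT1G09200, all H3.3 genes and all variants of H2A were not among the 12 members with any such shared word.

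The 250 bases before the annotated start were searched on both strands for the histone octamer CGCGGATC, a plant histone promoter word, for the hexamer ACGTCA, also known from plant histone promoters, and for E2F-like words (TTTCCCGC, TTTGGCGC, TTTGCCGC and TTTCGCGC), which resemble sites of E2F, a cell cycle transcription factor. The windows of 5 members are printed, with every match in capitals. They were chosen as the most abundant H3.1 and H4 genes, the H2A.W gene that moved most, an H3.3 gene that holds the octamer, and an H2B gene with a hexamer and an E2F-like word. The start was that of the RefSeq transcript nearest in length to the gene model of the table, and other annotated transcripts of AT4G40040 start farther upstream, so that part of its window is transcribed in those.
AT1G09200 (H3.1, chr1:2972335-2972584, minus strand): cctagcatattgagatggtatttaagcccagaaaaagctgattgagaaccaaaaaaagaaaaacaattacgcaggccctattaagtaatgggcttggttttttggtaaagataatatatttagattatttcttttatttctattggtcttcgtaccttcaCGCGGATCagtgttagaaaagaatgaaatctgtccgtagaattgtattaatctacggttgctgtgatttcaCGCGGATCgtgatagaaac
AT5G59690 (H4, chr5:24051224-24051473, plus strand): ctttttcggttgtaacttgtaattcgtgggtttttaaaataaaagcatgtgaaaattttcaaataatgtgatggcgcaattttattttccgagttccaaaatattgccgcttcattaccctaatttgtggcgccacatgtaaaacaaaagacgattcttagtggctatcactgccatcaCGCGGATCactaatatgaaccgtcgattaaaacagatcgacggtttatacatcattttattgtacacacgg
HTA6 (H2A.W, chr5:24116221-24116470, minus strand): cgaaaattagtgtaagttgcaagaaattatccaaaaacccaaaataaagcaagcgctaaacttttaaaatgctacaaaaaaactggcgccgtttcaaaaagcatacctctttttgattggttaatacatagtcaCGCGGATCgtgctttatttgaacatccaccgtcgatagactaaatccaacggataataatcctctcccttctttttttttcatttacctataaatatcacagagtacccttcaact
AT4G40040 (H3.3, chr4:18558744-18558993, minus strand): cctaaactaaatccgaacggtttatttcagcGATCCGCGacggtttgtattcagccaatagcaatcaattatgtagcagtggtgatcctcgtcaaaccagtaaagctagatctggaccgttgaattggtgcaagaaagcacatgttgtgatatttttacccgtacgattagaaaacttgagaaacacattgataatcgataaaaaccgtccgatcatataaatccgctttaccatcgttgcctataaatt
HTB2 (H2B, chr5:7652715-7652964, minus strand): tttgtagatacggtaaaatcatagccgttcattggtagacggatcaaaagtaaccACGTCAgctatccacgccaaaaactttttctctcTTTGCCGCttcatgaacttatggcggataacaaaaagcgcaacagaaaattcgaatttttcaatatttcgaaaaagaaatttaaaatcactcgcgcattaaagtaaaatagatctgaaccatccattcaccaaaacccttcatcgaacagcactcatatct
The octamer was present in 34 of 26710 such windows (0.13%), and 9 of those belonged to members. These were AT1G09200, AT5G10400 and AT5G65360 of the H3.1 genes, AT1G07660 and AT5G59690 of the H4 genes, HTA10, HTA13, HTA6 and AT4G40040. In AT1G09200 it stood at 2 places, with first bases 90 and 19 bases before the start (written -90 and -19). No H2B window of 10 held the octamer, while 8 of 10 held the hexamer, against 2078 windows (7.78%) in all. E2F-like words stood in 388 windows (1.45%), among them those of AT3G45930, AT3G46320 and HTB2. The windows of the H4 genes AT3G45930 and AT3G46320 were alike in 247 of 250 bases, and their coding sequences in 97.4%. These are matches of letters and no measure of binding.

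Library sizes recovered from the table were 20740957 mapped reads for 0 h replicate 1, 11760741 and 11736568 after 24 h, and 7717255 to 7872179 for the rest. Levels are in RPKM, read numbers corrected for gene length and library size, so they can be compared between genes. All 38 members passed the filter on low values and were tested among 19656 genes. A member had 5 to 7087 reads in a library, and 31 members had at least 30 in each. Root hair markers summed to at most 1.33 RPKM in any library and WUSCHEL and CLAVATA3, defining genes of the shoot apex, stayed below 1 RPKM. STM, another such gene, had 2.05, 2.90 and 0.373 RPKM at 0 h and 1.52, 1.13 and 0.0947 after 1 h. It had 1.21, 0.841 and 0.0935 RPKM at 12 h and stayed below 1 RPKM at 3, 6 and 24 h. The shoot apex list of 4 genes was nearly all KNAT1. It summed to between 79.2 and 97.7 RPKM at 0 h, 32.6 and 42.5 after 1 h, and 32.6 and 36.5 at 3 h. Its sum was between 35.7 and 37.8 RPKM after 6 h, 50.5 and 58.2 at 12 h, and 47.0 and 48.4 after 24 h. The sum of the list was below its 0 h range at every later time point. Phloem markers summed to between 171.6 and 199.2 RPKM at 0 h, 116.6 and 144.9 after 6 h, and 93.8 and 130.2 at 12 h. After 24 h they summed to between 103.7 and 136.4 RPKM, still below the 0 h range. Of the 3 phloem genes only SEOR1 was called lower after 24 h (means of 123.5 and 53.1 RPKM at 0 h and 24 h). SUC2 had its highest mean after 24 h (55.6 RPKM, against 51.4 at 0 h). 12 h replicate 1 stood apart by its light-harvesting transcripts, which summed to 196.5 RPKM there and to at most 18.9 in every other library. Without it, 9 members were higher and 8 lower at 12 h, against 8 and 10 with it. Xylem markers summed to between 249.9 and 376 RPKM up to 12 h and to between 99.96 and 120.03 after 24 h. The part of these cell types in the histone levels was not tested, and in such bulk samples fewer cells of a type and less RNA per cell cannot be told apart.

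Most histone genes fell within the first hours, stayed low until 6 h and rose above their starting level by 24 h. Summed over all 38 genes, the level was 2719 ± 27.9 RPKM at 0 h, 1733 ± 38 after 1 h, 1688 ± 54.1 at 3 h, 2008 ± 69.6 after 6 h, 2690 ± 113 at 12 h (SD, n = 3 each) and 3607 ± 80.6 after 24 h (SD, n = 2). The sum was lowest at 3 h, where its libraries overlapped with those of 1 h, and 27 of 38 members had their highest mean after 24 h. Each gene was tested with limma on log2(RPKM + 1), with p-values adjusted by Benjamini and Hochberg over all genes tested and called at 0.05. At 1 h 32 members were lower and 1 was higher than at 0 h, where 54.7% of all tested genes were lower and 18.2% higher. The median tested gene itself was lower by 0.36 on the log2 scale after 1 h, and after centring each library on its median 25 members were lower and 5 higher. Among the most abundant and most changed members of each class, the 1 h call was lost by that centring in AT1G09200, AT5G10980, H2AXA, GAMMA-H2AX and HTB1 (adjusted p = 0.0525 to 0.581). At 3 h 31 members were lower and 3 higher, against 39.3% and 27.6% of all genes, and after 6 h 26 were lower and 4 higher, against 37.1% and 30.2%. At 12 h 10 were lower (27.8% of all genes) and 8 higher (34.4%). At 24 h 27 were higher and 2 lower, against 36.2% and 23.2%. An F test over the course called 37 of 38 members and 93.2% of all genes, so that count is near the background.

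**Figure D1:**
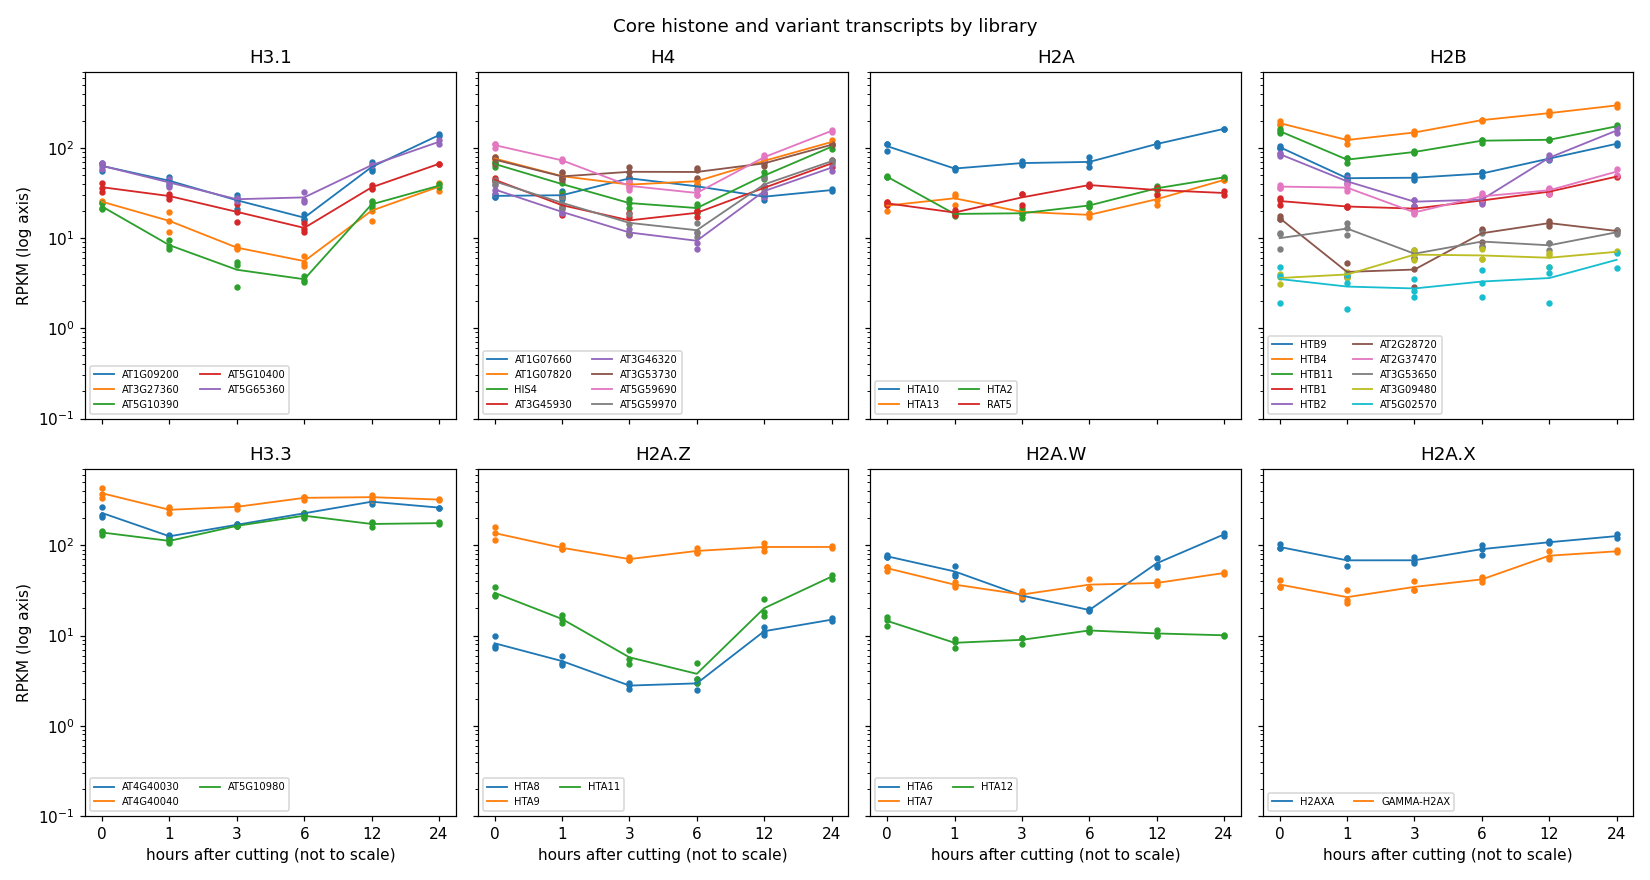
Level of each of the 38 members in RPKM (log axis) against hours after cutting (not to scale), a panel for each class. Points are libraries and lines join the means. H3.1 genes and most H4 genes dip at 3 h and 6 h and end above their start, whereas the H3.3 genes stay between 108 and 430.4 RPKM.

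The 13 replication-linked genes moved together except for a single H4 gene. At 3 h and again after 6 h 12 of 13 were lower and AT1G07660 was higher than at 0 h. At 12 h 11 of 13 were not called, and after 24 h 12 of 13 were higher. Their median log2 change from 0 h was -0.64 after 1 h, -1.41 at 3 h, -1.58 after 6 h, -0.09 at 12 h and 0.63 after 24 h, where that of all tested genes was -0.36, -0.12, -0.07, 0.06 and 0.14. The 11 replacement variants had medians of -0.56, -0.64, -0.32, -0.14 and 0.34. At 6 h 6 of the 11 were lower and 1 was higher, and after 24 h 6 were higher and 2 lower. The difference of the medians, replication-linked minus replacement, was -0.08 after 1 h, -0.77 at 3 h, -1.26 after 6 h, 0.05 at 12 h and 0.28 after 24 h, a description with no test. At 12 h its sign turned when 0 h replicate 3 was left out (-0.09). The 3 members of the replacement group that were lower after 6 h and higher after 24 h, as 12 of the 13 replication-linked genes were, were HTA8, HTA11 and HTA6.

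**Figure D2:**
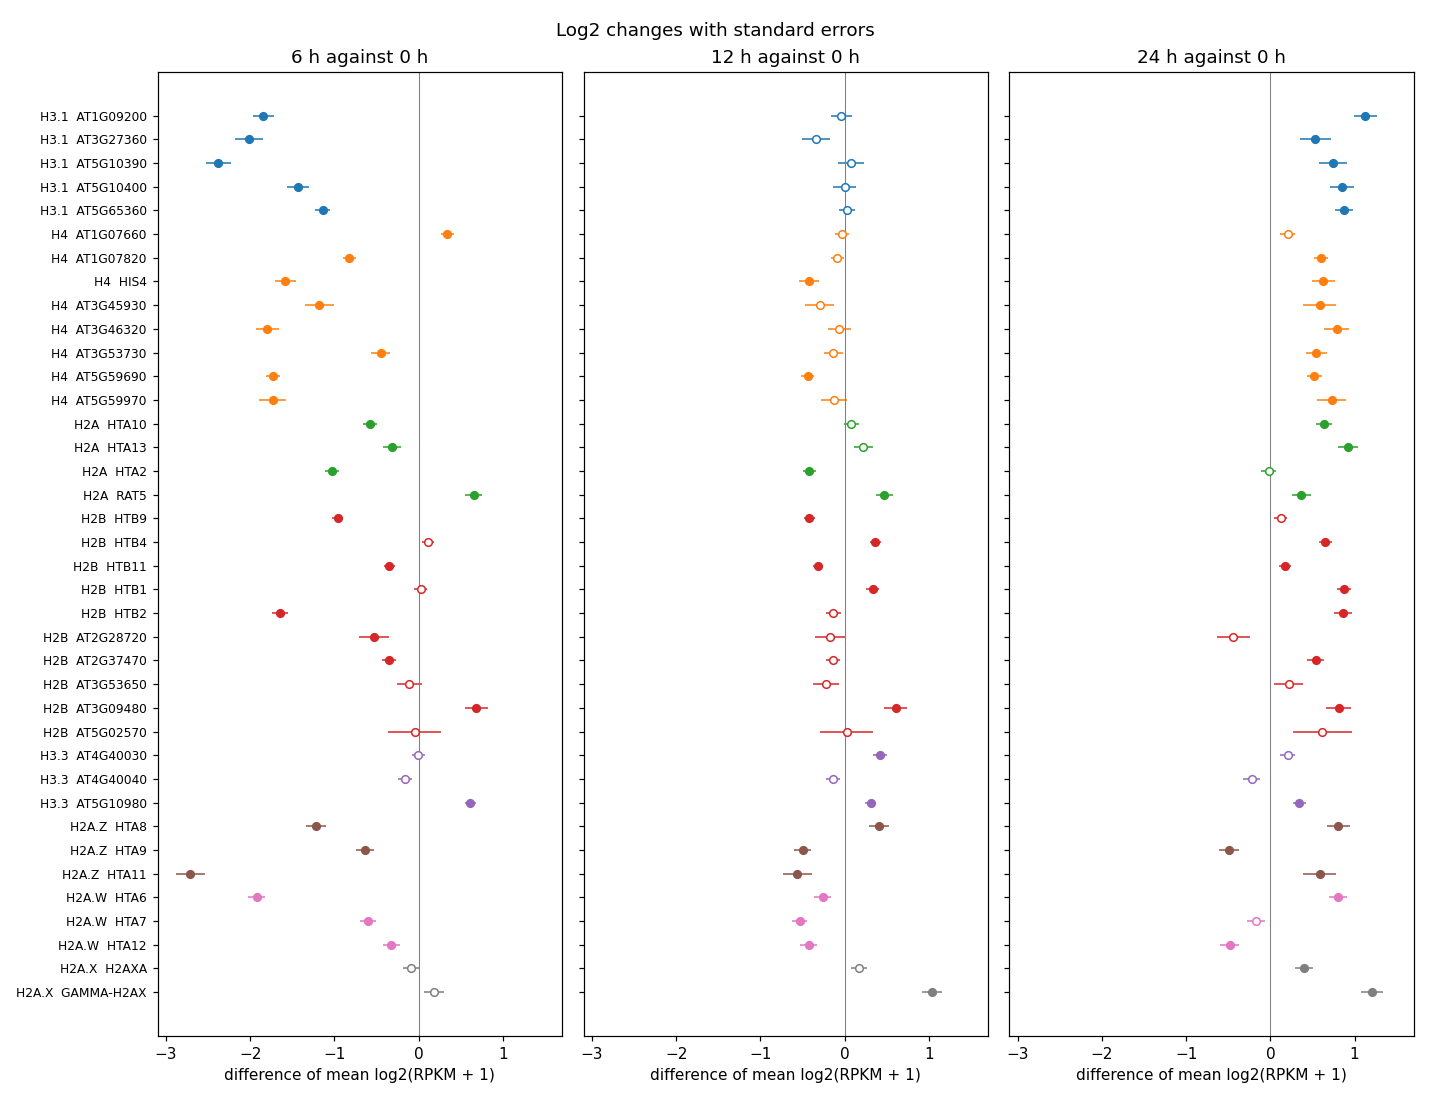
Log2 change of each member from 0 h at 6, 12 and 24 h, on the log2(RPKM + 1) scale, coloured by class. Bars are standard errors, and filled points passed an adjusted p of 0.05 in limma. At 6 h the H3.1 points lie between -2.38 and -1.14, while those of H3.3 lie between -0.16 and 0.61.

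Among the H3.1 genes, the most abundant and the most raised after 24 h was AT1G09200. Its levels were 68.6, 65.7 and 55.8 RPKM at 0 h, 48.2, 42.9 and 38.9 after 1 h, 30.2, 27.7 and 21.2 at 3 h, 15.9, 16.4 and 18.4 after 6 h, 55.7, 70.5 and 58.8 at 12 h, and 136 and 142 after 24 h. No library at 1, 3 or 6 h reached the lowest 0 h library, the 12 h libraries overlapped with those of 0 h, and both 24 h libraries were higher than any other. The log2 change was -1.84 (SE 0.12, adjusted p = 2.91e-09, limma) after 6 h and 1.13 (SE 0.14, adjusted p = 4.87e-06) after 24 h. At 12 h it was -0.04 (SE 0.12, adjusted p = 0.794), and without 0 h replicate 1 or 12 h replicate 1 its sign turned (0.02 and 0.03). All 5 H3.1 genes were lower at 1, 3 and 6 h, none was called at 12 h, and all 5 were higher after 24 h by 0.53 to 1.13. The deepest fall was that of AT5G10390, from 24.7, 21.7 and 21.0 RPKM at 0 h to 3.44, 3.81 and 3.27 after 6 h, a log2 change of -2.38 (SE 0.15, adjusted p = 1.26e-09). Its neighbour by number, AT5G10400, fell less, from 41.1, 36.3 and 33.0 to 14.8, 12.5 and 11.8 RPKM. AT3G27360 went from between 24.8 and 26.0 RPKM at 0 h to between 4.92 and 6.42 after 6 h and 33.7 and 41.0 after 24 h, and AT5G65360 from between 58.6 and 68.1 to between 25.5 and 32.9 and then 111 and 123.

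The H3.3 genes, which supply H3 outside replication, had levels of 108 to 430.4 RPKM over all libraries. AT4G40040 had 333, 374 and 430.4 RPKM at 0 h, 228, 265 and 253 after 1 h, 278, 273 and 253 at 3 h, 346, 345 and 321 after 6 h, 320.1, 347 and 363 at 12 h, and 317 and 329 after 24 h. All libraries of 1 h, 3 h and 24 h lay below the lowest 0 h library, and of these the 1 h and 3 h changes passed the test. The log2 change was -0.60 (SE 0.09, adjusted p = 1.62e-05) after 1 h and -0.16 (SE 0.09, adjusted p = 0.113) after 6 h. The later changes did not pass, but they did without 0 h replicate 1, where those of 6, 12 and 24 h were -0.25, -0.23 and -0.31 with adjusted p of 0.0179, 0.0324 and 0.00973. They also passed with quantile normalization (-0.40, -0.38 and -0.49, adjusted p = 0.000655, 0.00117 and 0.000342), and that of 24 h with median centring (adjusted p = 0.00792), with voom (adjusted p = 0.0443) and without 1 h replicate 1 (adjusted p = 0.05, rounded up). AT5G10980 rose after 6 h, with 208, 204 and 229 RPKM against 132, 143 and 142 at 0 h, groups that did not overlap, a log2 change of 0.61 (SE 0.07, adjusted p = 6.29e-07). It was lower after 1 h (108, 113 and 116 RPKM, log2 change -0.31) and higher after 24 h (173 and 181 RPKM, 0.34, SE 0.07, adjusted p = 0.000912). Its rise after 24 h was lost with quantile normalization (0.17, adjusted p = 0.0647). AT4G40030 fell from 205, 217 and 265 RPKM at 0 h to 119.7, 128 and 131 after 1 h and stood at 289, 315 and 312 at 12 h.

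The makeup of H3 messages differed between time points. H3.1 genes gave between 18.8% and 25.3% of summed H3 RPKM at 0 h, between 20.2% and 25.1% after 1 h, between 11.5% and 13.1% at 3 h and between 7.57% and 8.56% after 6 h. The share was between 18.6% and 20.9% at 12 h and 33.8% and 34.9% after 24 h. The 3 h and 6 h libraries lay below and the 24 h libraries above all those of 0 h, without overlap, and the 1 h libraries lay within the 0 h range. Summed H3.1 was 211 ± 16.5 RPKM at 0 h, 67.4 ± 5.32 after 6 h (SD, n = 3) and 399 ± 20.3 after 24 h (SD, n = 2), while summed H3.3 was 747 ± 84.5, 778 ± 7.09 and 762 ± 13.5. These are shares of message, not of protein or of chromatin.

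**Figure D3:**
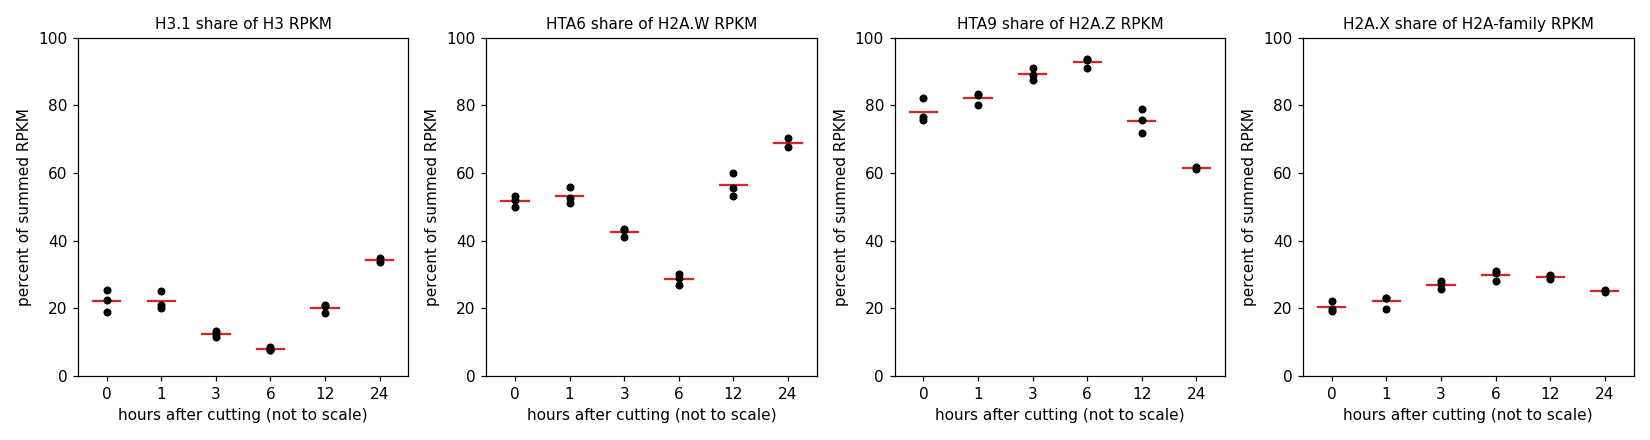
Share of summed RPKM, in percent, taken by H3.1 among H3 genes, by HTA6 among H2A.W genes, by HTA9 among H2A.Z genes and by H2A.X among all H2A-family genes, against hours after cutting (not to scale). Points are libraries and red bars are means. H3.1 falls to a mean of 7.96% and HTA6 to 28.6% after 6 h, while HTA9 climbs to 92.8%, and after 24 h they stand at 34.4%, 69.0% and 61.5%.

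The H4 genes encode the partner of H3 in the nucleosome core. AT5G59690, the most abundant, had 112, 101 and 111 RPKM at 0 h, 75.1, 71.1 and 73.1 after 1 h, 34.6, 42.6 and 37.0 at 3 h, 34.6, 30.2 and 30.5 after 6 h, 75.3, 78.7 and 83.6 at 12 h, and 151 and 159.6 after 24 h. Libraries from 1 h to 12 h were all below those of 0 h and the 24 h libraries were all above. The log2 change was -1.73 (SE 0.08, adjusted p = 3.65e-11) after 6 h, -0.44 (SE 0.08, adjusted p = 0.000177) at 12 h and 0.52 (SE 0.09, adjusted p = 0.000114) after 24 h. AT3G46320 had the largest rise of the class after 24 h, from 39.1, 34.4 and 30.7 RPKM at 0 h to 55.5 and 65.8, a log2 change of 0.79 (SE 0.15, adjusted p = 0.000326), following 11.5, 7.64 and 8.90 RPKM at 6 h. Its near-identical partner AT3G45930 went from 44.3, 46.3 and 42.9 RPKM to 20.2, 19.8 and 17.4 after 6 h and 73.4 and 61.8 after 24 h, and reads of the pair may be mixed. HIS4, AT5G59970, AT1G07820 and AT3G53730 also fell after 6 h, by log2 changes of -1.58, -1.73, -0.82 and -0.45, and rose after 24 h by 0.54 to 0.73. HIS4 was, beside AT5G59690, the other H4 gene still lower at 12 h (-0.42). AT1G07660 was the exception, with 28.7, 28.8 and 30.9 RPKM at 0 h and 46.1, 45.8 and 46.6 at 3 h, a log2 change of 0.63 (SE 0.08, adjusted p = 3.53e-06). It was also higher after 6 h (0.34, SE 0.08, adjusted p = 0.00129) and was not called after 24 h (0.21, adjusted p = 0.0553), and its promoter window holds the octamer.

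The H2A genes without a variant label did not share a course. HTA10 had 110.2, 112 and 93.1 RPKM at 0 h, 60.8, 57.7 and 59.4 after 1 h, 79.1, 70.5 and 61.0 after 6 h, 113, 115 and 105 at 12 h, and 164 and 163 after 24 h. Its 1 h and 6 h libraries lay below and its 24 h libraries above those of 0 h. The log2 change was -0.58 (SE 0.09, adjusted p = 2.88e-05) after 6 h and 0.64 (SE 0.10, adjusted p = 4.67e-05) after 24 h. HTA13 rose to 43.9 and 44.8 RPKM after 24 h from 23.5, 25.2 and 20.3 at 0 h, a log2 change of 0.92 (SE 0.12, adjusted p = 9.61e-06). HTA13 was also the member called higher after 1 h (29.0, 23.4 and 30.7 RPKM, 0.26, adjusted p = 0.0454), with libraries that overlapped those of 0 h. The call was lost in 13 of the 17 fits that left out a library (adjusted p = 0.0508 to 0.189). Its fall after 6 h (-0.32, adjusted p = 0.0171) was lost without 0 h replicate 2 (-0.25, adjusted p = 0.0807) or 6 h replicate 3 (-0.28, adjusted p = 0.0592). HTA2 fell from between 47.4 and 48.8 RPKM to between 17.6 and 19.7 after 1 h and had regained 46.4 and 48.2 by 24 h. RAT5, named for a mutant resistant to Agrobacterium transformation, instead peaked after 6 h, with 40.1, 38.2 and 38.3 RPKM against 25.5, 24.4 and 23.2 at 0 h, a log2 change of 0.65 (SE 0.10, adjusted p = 2.58e-05).

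Both H2A.X genes were lower after 1 h, and GAMMA-H2AX was above its starting level by 12 h. H2AXA had 103, 93.0 and 92.7 RPKM at 0 h, 72.4, 59.7 and 73.0 after 1 h, 108, 112 and 105 at 12 h, and 121 and 133 after 24 h. Its log2 change was -0.49 (SE 0.10, adjusted p = 0.00032) after 1 h and 0.40 (SE 0.11, adjusted p = 0.00533) after 24 h, the latter lost without 24 h replicate 2 (0.33, adjusted p = 0.0633). At 6 h it was -0.08 (adjusted p = 0.457), with the sign turned when 6 h replicate 3 was left out (0.01). GAMMA-H2AX had 41.5, 34.5 and 34.6 RPKM at 0 h, 44.3, 42.4 and 39.3 after 6 h, 70.7, 85.7 and 74.5 at 12 h, and 84.0 and 88.2 after 24 h. Its 12 h and 24 h libraries were all above those of 0 h, with log2 changes of 1.04 (SE 0.12, adjusted p = 1.7e-06) and 1.21 (SE 0.13, adjusted p = 1.5e-06). That was the largest rise of any member at each of these time points, and none of the 5 H3.1 genes was called at 12 h. GAMMA-H2AX overlaps genes on the other strand by up to 259 bases. H2A.X genes held 20.3% ± 1.68 of summed H2A-family RPKM at 0 h and 29.9% ± 1.48 after 6 h (SD, n = 3 each). Their own sum hardly differed between these times (means of 133.08 and 133.05 RPKM), while that of the whole H2A family went from 655 to 444 RPKM. The mean share was 29.3% at 12 h and 25.1% after 24 h.

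Of the H2A.Z genes, HTA9 was the abundant one and did not return to its start. It had 114, 136 and 161 RPKM at 0 h, 91.5, 100.3 and 90.7 after 1 h, 68.6, 69.2 and 73.9 at 3 h, 85, 82.9 and 92.8 after 6 h, 85.8, 96.2 and 106 at 12 h, and 93.0 and 99.2 after 24 h. Every later library was below the lowest 0 h library. The log2 change was -0.94 (SE 0.10, adjusted p = 9.31e-07) at 3 h and still -0.49 (SE 0.12, adjusted p = 0.00188) after 24 h. HTA8 and HTA11 were instead lower after 6 h and higher after 24 h, as most replication-linked genes were. HTA8 had 7.64, 9.78 and 7.24 RPKM at 0 h, 2.52, 3.00 and 3.33 after 6 h, 10.8, 12.4 and 10.3 at 12 h, and 14.5 and 15.5 after 24 h. Its log2 change was -1.22 (SE 0.12, adjusted p = 2.66e-07) after 6 h, 0.41 (SE 0.12, adjusted p = 0.00879) at 12 h and 0.81 (SE 0.14, adjusted p = 0.00011) after 24 h. HTA11 had the deepest fall of all 38 members, from 27.5, 34.2 and 27.9 RPKM at 0 h to 3.33, 5 and 2.97 after 6 h, a log2 change of -2.71 (SE 0.17, adjusted p = 1.36e-09). It reached 42.8 and 47.4 RPKM after 24 h (0.58, SE 0.19, adjusted p = 0.0157). HTA9 held 78.0% ± 3.52 of summed H2A.Z RPKM at 0 h, 92.8% ± 1.39 after 6 h (SD, n = 3) and 61.5% ± 0.456 after 24 h (SD, n = 2).

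The H2A.W genes also differed from each other in course. HTA6 had 74.0, 78.7 and 74.5 RPKM at 0 h, 59.9, 48.4 and 46.3 after 1 h, 29.8, 28.4 and 25.2 at 3 h, 19.6, 18.7 and 19.4 after 6 h, 60.6, 71.9 and 57.7 at 12 h, and 127 and 138 after 24 h. Libraries from 1 h to 12 h lay below and those of 24 h above all 0 h libraries. The log2 change was -1.92 (SE 0.10, adjusted p = 1.15e-10) after 6 h, -0.26 (SE 0.10, adjusted p = 0.0311) at 12 h and 0.80 (SE 0.11, adjusted p = 1.34e-05) after 24 h. The 12 h call was lost without 0 h replicate 2 (-0.23, adjusted p = 0.0917), 12 h replicate 1 (-0.23, adjusted p = 0.0922) or 12 h replicate 3 (-0.20, adjusted p = 0.132). HTA7 fell less, from between 52.5 and 57.8 RPKM at 0 h to between 26.8 and 31.3 at 3 h, and after 24 h its 51.0 and 48.0 RPKM did not pass the test (-0.17, adjusted p = 0.163). HTA12 stood at 9.90 and 10.3 RPKM after 24 h against 16.1, 14.8 and 12.7 at 0 h (-0.48, SE 0.11, adjusted p = 0.00152), and with HTA9 it made up the 2 members that were lower after 24 h. HTA12 overlaps the H2B gene AT5G02570 by 522 bases on the other strand, and whether strand was used in counting is not given in the sources used here, so the values of both are uncertain. HTA6 held 51.8% ± 1.66 of summed H2A.W RPKM at 0 h, 28.6% ± 1.68 after 6 h (SD, n = 3) and 69.0% ± 1.95 after 24 h (SD, n = 2).

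The H2B genes, whose product pairs with H2A, did not share a course. HTB4, the most abundant, had 201, 187 and 179 RPKM at 0 h, 127, 131 and 111 after 1 h, 207, 204 and 201 after 6 h, 235, 255 and 242 at 12 h, and 311 and 284 after 24 h. Its 1 h libraries lay below and its 12 h and 24 h libraries above those of 0 h, with log2 changes of -0.62 (SE 0.07, adjusted p = 1.25e-06), 0.37 (SE 0.07, adjusted p = 0.00029) and 0.65 (SE 0.08, adjusted p = 3.7e-06). The 12 h call was lost with quantile normalization (0.13, adjusted p = 0.104), and after 6 h (0.11, adjusted p = 0.175) the sign turned with it. HTB1 rose most after 24 h, to 49.2 and 47.2 RPKM from 27.9, 26.2 and 23.4, a log2 change of 0.88 (SE 0.08, adjusted p = 3.03e-07). Its call after 1 h (-0.19, adjusted p = 0.032) was lost in 4 of the 17 fits that left out a library, with 0 h replicate 1 or 2 or 1 h replicate 1 or 3 missing (-0.18 to -0.13, adjusted p = 0.0695 to 0.144). That call was also lost with quantile normalization (-0.085, adjusted p = 0.316) and with only the time points compared (adjusted p = 0.0914). With median centring its sign turned (0.073, adjusted p = 0.38).

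HTB2 was lower after 6 h and higher after 24 h, as the H3.1 genes were, with 88.4, 82.5 and 86.2 RPKM at 0 h, 26.6, 30.3 and 23.7 after 6 h and 148 and 165 after 24 h. Its log2 change was -1.64 (SE 0.09, adjusted p = 3.65e-10) after 6 h and 0.86 (SE 0.10, adjusted p = 3.8e-06) after 24 h. HTB11 and AT2G37470 were likewise lower after 6 h (-0.35 each) and higher after 24 h (0.18 and 0.54). HTB9 fell to between 43.9 and 49.9 RPKM after 1 h from between 100.3 and 106 and was not called after 24 h (0.12, adjusted p = 0.173). AT2G28720 had an early dip, from between 16.2 and 17.4 RPKM at 0 h to between 3.68 and 5.31 after 1 h. It had 6.03, 4.54 and 2.91 RPKM at 3 h, between 9.14 and 12.6 after 6 h, and 12.4 and 11.7 after 24 h. Every later library of this gene lay below its lowest 0 h library, though its 24 h change was not called. AT3G09480 was the H2B gene higher at 3 h (0.71), 6 h (0.69), 12 h (0.61) and 24 h (0.81), from between 3.14 and 3.98 RPKM at 0 h to 6.99 and 7.15 after 24 h. AT3G53650 was called at 3 h (-0.49), and AT5G02570, at 1.62 to 6.82 RPKM, at no time point.

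In all, 20 of 38 members were lower after 6 h and higher after 24 h than at 0 h, where 5.01% of all tested genes were. They were all 5 H3.1 genes, 7 of 8 H4 genes, HTA10 and HTA13, HTB11, HTB2 and AT2G37470, HTA8 and HTA11, and HTA6, and none of the H3.3 or H2A.X genes. The octamer stood in the promoter windows of 7 of these 20 and of 2 of the other 18 members (AT1G07660 and AT4G40040). In the 300 bases before the start codon, where it stood in 35 of 26709 genes (0.13%), it was again found in 9 members, 7 of them the same genes. The others were RAT5 and the H2B gene HTB4. E2F-like words stood in that second window of 1 member (2.6%), HTA9, against 1.99% of all genes. They were not in those of AT3G45930, AT3G46320 or HTB2. The hexamer stood in 13 members there (34.2%), against 7.8% of all genes. Of the 12 H3.1 and H4 genes lower after 6 h and higher after 24 h, 4 held the octamer in the first window. HTA8, HTA11 and HTB2 were among the other members with that course that held no octamer there. That says only that these letters are absent there.

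Steps between neighbouring time points compare levels without those of 0 h, although the 0 h libraries share in the estimate of spread. From 3 h to 6 h 14 members were higher and 6 lower, against 19.2% and 14.4% of all genes. The 6 that were lower were the H3.1 genes AT1G09200 and AT5G10400, the H4 genes AT5G59690 and AT1G07660, HTA11 and HTA6, and 7 of the 11 replacement variants were already higher. From 6 h to 12 h 25 were higher and 2 lower (32.1% and 16.5% of all genes), among them 12 of 13 replication-linked genes with a median log2 change of 1.29. From 12 h to 24 h 24 were higher and 0 lower (10.3% and 8.11% of all genes), again with 12 of 13 replication-linked genes (median 0.85), but 3 of 11 replacement variants (median 0.16). From 1 h to 3 h 20 were lower and 8 higher (22.2% and 38% of all genes). AT1G09200 rose by 1.80 (SE 0.12, adjusted p = 3.73e-08) from 6 h to 12 h and by a further 1.17 (SE 0.14, adjusted p = 4.15e-05) to 24 h.

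Genes of replication and of histone handling were set beside the histones. Of 15 tested S phase genes, all 15 were lower at 1, 3 and 6 h, 11 were higher at 12 h and 13 after 24 h. Of all tested genes, 54.7%, 39.3% and 37.1% were lower at 1, 3 and 6 h. At 12 h and 24 h, 34.4% and 36.2% of all tested genes were higher. TSO2, a small subunit of ribonucleotide reductase, which makes deoxynucleotides, went from 59.998, 61.5 and 52.9 RPKM at 0 h to 57.4, 66.5 and 57.5 at 12 h and 98.8 and 99.7 after 24 h. RNR1, the large subunit, was already at 50.5, 55.8 and 54.8 RPKM at 12 h against 30.7, 28.6 and 28.4 at 0 h, a log2 change of 0.85 (SE 0.06, adjusted p = 1.45e-08). At that time 0 of 13 replication-linked histone genes were higher and 2 were lower by limma, and the difference between the lists was not tested. From 12 h to 24 h 2 of 15 S phase genes were higher, near the share of all genes (10.3%). The 10 genes of G2 and M phase were lower at 3 h and 6 h, 6 were lower at 12 h (27.8% of all genes), and 9 were higher after 24 h. CDKB2;1, a kinase of entry into mitosis, fell to 5.14, 4.30 and 5.17 RPKM after 6 h from 33.3, 31.8 and 27.8 and reached 52.6 and 51.9 after 24 h. SYP111, the cytokinesis syntaxin KNOLLE, had 41.1, 44.0 and 38.6 RPKM at 0 h, 3.74, 3.75 and 3.44 after 6 h and 46.4 and 47.0 after 24 h (0.18, adjusted p = 0.478).

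**Figure D4:**
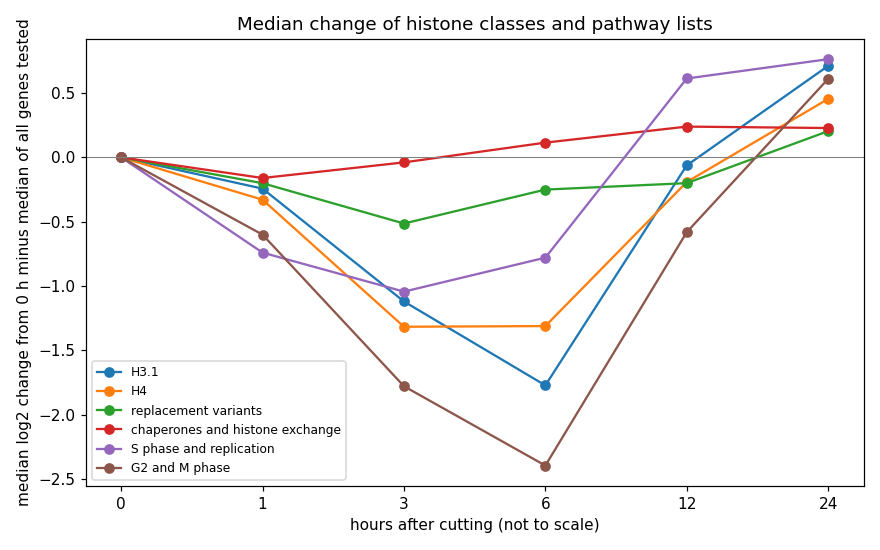
Median log2 change from 0 h of the H3.1, H4 and replacement variant genes and of the gene lists for chaperones, S phase and G2 and M phase, less the median of all tested genes, against hours after cutting (not to scale). Points are medians over the tested genes of a list. At 12 h the S phase list stands at 0.61 and H3.1 at -0.06, and after 24 h they stand at 0.76 and 0.71.

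The 21 chaperone and histone exchange genes were lower in 19 cases after 1 h and in 8 after 6 h, when 7 were higher, and 13 were higher after 24 h. The 6 h counts are near the shares of all genes (37.1% lower and 30.2% higher). Of all genes, 54.7% were lower after 1 h and 36.2% higher after 24 h. FAS1 and FAS2, the large subunits of CAF-1, which lays down H3.1 at replication, had 5.90, 6.17 and 4.88 and 3.52, 3.51 and 3.64 RPKM at 0 h. At 6 h FAS1 had 1.86, 1.51 and 1.74 RPKM (-1.29, SE 0.11, adjusted p = 4.78e-08) and FAS2 1.75, 0.946 and 0.949 (-1.06, SE 0.15, adjusted p = 1.09e-05). At 24 h FAS1 was higher (0.37, adjusted p = 0.019), and FAS2 did not pass (0.36, adjusted p = 0.0733). HIRA, a chaperone of H3.3, was chosen after its values were seen. It had 4.70, 5.30 and 4.70 RPKM at 0 h, 2.65, 2.75 and 2.81 after 1 h and 6.43, 6.92 and 6.47 after 6 h (0.37, SE 0.10, adjusted p = 0.00289). NRP1, a chaperone related to NAP1, rose from 83.9, 74.5 and 83.2 RPKM at 0 h to 119, 112 and 115 after 6 h and 195, 190.4 and 201 at 12 h (1.27, SE 0.07, adjusted p = 5.86e-10). NAP1;2, which carries H2A and H2B, had 264, 261 and 274 RPKM at 12 h against 180.3, 188 and 222 at 0 h (0.44, SE 0.07, adjusted p = 7.06e-05).

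Other histone genes did not follow the core histones as a group. Of 6 tested, 4 were lower and 1 higher at 3 h (39.3% and 27.6% of all genes). After 24 h 1 was lower and 1 higher (23.2% and 36.2% of all genes), and 6 genes are too few to set against these shares. The linker histone HIS1-3, known for its induction by drought and abscisic acid, fell from 198, 228 and 347 RPKM at 0 h to 17.8, 19.2 and 14.4 at 3 h, a log2 change of -3.80 (SE 0.25, adjusted p = 4.38e-09). It was still at 22.7 and 36.2 RPKM after 24 h (-3.08, SE 0.28, adjusted p = 2.9e-07). The H1 gene AT1G06760 fell to 60.9, 62.3 and 60.2 RPKM after 1 h from 122, 125 and 120.5 and was back at 122, 129 and 116 after 6 h. CENH3 (HTR12), the centromeric H3, had 4.13, 5.52 and 3.59 RPKM at 0 h, 1.41, 0.772 and 1.29 after 6 h (-1.32, SE 0.21, adjusted p = 3.34e-05) and 5.49 and 7.64 after 24 h (0.48, adjusted p = 0.0827).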

How the data were processed

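The data were 17 libraries made with a stranded mRNA kit from cut hypocotyls, per the labels' protocols, and a table of 28642 genes that the authors deposited. Its values, deposited by the authors with no unit in the header, were read as RPKM. With the recovered library sizes and a length per gene they gave whole reads for 24834 of 24834 genes above 0 (tolerance 0.01). The length equalled that of the reference exons for 3496 genes. For the rest it was searched for, so genes with few values above 0 could hardly fail. The genome build is TAIR10 per the submitters' processing notes. The sources used here name no aligner or counter, nor how strand and reads matching several genes were treated. For a 1 kb gene 3 reads equal 0.1446 to 0.3887 RPKM, which covers counting error only.

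The 19656 genes that reached an RPKM of 1 in 2 or more libraries were fitted as log2(RPKM + 1) with limma 3.58.1 in R 4.3.3 (trend and robust moderation), time point as a factor, Benjamini-Hochberg adjustment over all tested genes and a threshold of 0.05. The procedure was tested on simulated data. All 17 libraries shared 1 fit, so that 24 h with n = 2 borrowed the spread of the others. Fold changes on this scale understate those of low genes. Nothing says that libraries of a time point came from separate plants, so the spread behind each p-value may be technical. Libraries of a time point correlated across genes at 0.975 to 0.992. Members, gene lists and tests were chosen with earlier results of these data known. Full statistics went to the most abundant member of each class and the member with the largest change at 24 h, to the 2 most abundant genes of each other list, and to CENH3, FAS1 and FAS2. Other genes with statistics, such as HTA11, HTB2, AT5G10390, AT1G07660 and RAT5, were chosen after their values were seen. Alternatives were a pseudocount of 0.1, no filter or a minimum RPKM of 5, median centring, quantile normalization, limma's voom on the recovered reads, a replicate block, fits of only the time points compared, and leaving out each library.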

Additional observations from a re-analysis of the deposited data

How the results depend on the processing

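In every alternative run, members called lower outnumbered those called higher at 1, 3 and 6 h. After 24 h those called higher outnumbered those called lower in every such run. Leaving out 1 library at a time gave 30 to 32 lower after 1 h, 31 to 32 at 3 h, 24 to 26 after 6 h and 8 to 11 at 12 h, and 8 to 9 higher at 12 h and 23 to 28 after 24 h. The members higher after 1 h (1) numbered 0 without the filter on low values, with voom, with only the time points compared and with the replicate block, 5 with median centring, 3 with quantile normalization and 0 to 2 when a library was left out. Those higher at 12 h (8) numbered 5 with quantile normalization. Those lower after 24 h (2) numbered 4 with voom or quantile normalization and 5 with median centring. Those higher from 1 h to 3 h (8) numbered 5 with median centring, and those lower from 12 h to 24 h (0) numbered 0 to 1 when a library was left out (1 without 0 h replicate 3).

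The median of replication-linked genes minus that of replacement variants was -0.043 after 1 h with voom (-0.14 to -0.0495 leaving out a library), -0.087 to 0.14 at 12 h leaving out a library, and 0.43 after 24 h with quantile normalization (0.22 to 0.36 leaving out a library). It lay between -0.84 and -0.58 at 3 h and between -1.36 and -1.18 after 6 h. Signs turned, for changes near 0, in HTA10 at 12 h (-0.015 with quantile normalization, -0.0017 to 0.13 leaving out a library) and GAMMA-H2AX at 3 h (0.0059 with median centring). Signs also turned in HTB4 after 6 h (-0.15 with quantile normalization) and HTB1 after 6 h (-0.0125 with quantile normalization, -0.0010 with voom, -0.045 to 0.078 leaving out a library). HTB1 after 1 h, a called change of -0.19, turned sign with median centring (0.073). When a library was left out, AT1G09200 at 12 h ranged from -0.14 to 0.028, AT3G46320 at 12 h from -0.16 to 0.037 and H2AXA after 6 h from -0.17 to 0.01. Members with few reads, such as AT5G02570, limit what could be called. The cause of these shifts was not tested.

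Replicate numbers were shared between time points. Same-numbered libraries deviated together weakly from the means of their time points (30 pairs, r from -0.0404 to 0.343, median 0.0999). The median for different numbers was -0.0504. Deviations of a time point sum to 0, so that value follows largely from the first and adds little. Yet 13 of 15 libraries correlated best with their own number, so some structure goes with the number. What the numbers stand for is not given. The main fit did not treat the libraries as paired, and a replicate block was run as an alternative. With the replicate block, 0 members were higher and 32 lower after 1 h, 3 and 31 at 3 h, 4 and 26 after 6 h, 8 and 10 at 12 h, and 27 and 3 after 24 h, and the difference of medians after 24 h was 0.19.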
